A study of Homo sapiens with 12 samples.

Results

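The regions described here are 5124 stretches of intergenic DNA that antibodies to ARID1A recovered 10 to 100 kb from the nearest protein-coding transcription start site (TSS) in RT112 cells, a line of human bladder cancer cells with wild-type ARID1A by the study's own classing. They were chosen by their width, position and overlap in the deposited hg38 region lists. Each is a region found with the Abcam antibody that is under 4000 bp wide, overlaps a region found with the CST antibody, overlaps no H3K4me3 region, has its midpoint outside every protein-coding gene body of GENCODE 44, lies with its nearest edge more than 10 kb and up to 100 kb from the nearest protein-coding TSS, and is more than 1 kb from any TSS of a long noncoding RNA (lncRNA). They make up 13.7% of the 37501 Abcam regions on chromosomes 1 to 22 and X, and 17.9% of the 28609 of these that overlap a CST region.

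CUT&RUN, in which an antibody steers a nuclease to cut out the DNA at its target, was run on RT112 cells with the Abcam and CST antibodies to ARID1A, with an antibody to H3K4me3 and with IgG, in 3 replicates each (12 samples). The authors merged the regions of the replicates into 1 list per antibody. The lists hold positions only, so no value per replicate can be given and the sequencing depth is unknown. Every interval and p-value below is over regions of the merged lists, treats them as independent, and covers counting error only. IgG regions were not analysed here, so no background measured with IgG stands beside these values. At promoters, H3K4me3 regions lay within 1 kb of a TSS at 52.1% of all 19970 protein-coding genes, at 20 of 26 luminal urothelial genes and 12 of 20 basal and squamous genes, and at 0 of 20 hepatocyte, 0 of 20 muscle, 0 of 20 immune cell, 3 of 20 neuronal and 3 of 20 fibroblast genes.

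ARID1A is a subunit of the canonical BAF form of SWI/SNF, a complex that uses ATP to slide and evict nucleosomes. Such complexes are known to work at enhancers, stretches of DNA away from promoters where sequence-specific transcription factors bind. H3K4me3 marks active promoters and is low at most enhancers. AP-1, a dimer of FOS and JUN proteins, is known to recruit BAF complexes to enhancers in other cell types. TEAD proteins carry the YAP and TAZ coactivators, and GATA3, FOXA1, PPARG, ELF3, KLF5, GRHL and TFAP2 proteins are transcription factors of the urothelium.

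The sequences below are the central 200 bp of the region nearest to the TSS of 9 urothelial, AP-1 and TEAD genes, to show what the regions near well-known genes of this tissue look like. They run 5′ to 3′ on the plus strand of hg38. Capitals mark words, on either strand, that were more frequent in the regions than in their own flanks (tested further on). AP-1 stands for the word TGANTCA and TEAD for the word CATTCC. The GATA word is AGATAA and the GRHL word is AACNNGTT. TFAP2 proteins are searched by the word GCCNNNGGC and the C/EBP proteins by the word TTGCNNAA. The NFI word is TTGGCA and GGGGCGG is the SP word.
GATA3: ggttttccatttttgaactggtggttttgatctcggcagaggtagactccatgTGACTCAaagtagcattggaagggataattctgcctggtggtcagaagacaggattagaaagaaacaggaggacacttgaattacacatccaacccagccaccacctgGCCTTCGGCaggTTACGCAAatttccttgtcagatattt
FOXA1: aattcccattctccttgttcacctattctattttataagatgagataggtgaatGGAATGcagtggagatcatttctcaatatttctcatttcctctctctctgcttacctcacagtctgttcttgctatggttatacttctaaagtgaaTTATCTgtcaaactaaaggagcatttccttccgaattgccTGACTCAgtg
ELF3: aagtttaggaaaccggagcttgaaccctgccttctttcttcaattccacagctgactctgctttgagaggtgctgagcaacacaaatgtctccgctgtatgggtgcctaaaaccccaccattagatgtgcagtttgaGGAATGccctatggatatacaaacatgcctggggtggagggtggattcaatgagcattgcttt
KLF5: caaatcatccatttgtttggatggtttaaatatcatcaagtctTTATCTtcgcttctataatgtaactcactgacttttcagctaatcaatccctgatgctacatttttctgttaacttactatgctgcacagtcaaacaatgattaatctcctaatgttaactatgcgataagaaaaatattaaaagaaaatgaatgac
TBX3: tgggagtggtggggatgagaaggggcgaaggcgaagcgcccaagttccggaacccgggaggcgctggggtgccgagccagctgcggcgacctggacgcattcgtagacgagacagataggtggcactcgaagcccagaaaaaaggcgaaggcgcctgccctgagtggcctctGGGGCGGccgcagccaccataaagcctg
KRT19: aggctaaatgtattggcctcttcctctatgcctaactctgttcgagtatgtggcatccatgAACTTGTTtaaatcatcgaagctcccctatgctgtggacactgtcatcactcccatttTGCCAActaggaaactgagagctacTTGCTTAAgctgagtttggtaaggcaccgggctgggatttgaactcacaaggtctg
FOSL2: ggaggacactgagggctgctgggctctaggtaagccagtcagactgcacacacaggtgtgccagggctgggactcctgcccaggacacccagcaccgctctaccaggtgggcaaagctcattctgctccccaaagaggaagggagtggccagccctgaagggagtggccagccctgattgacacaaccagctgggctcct
JUN: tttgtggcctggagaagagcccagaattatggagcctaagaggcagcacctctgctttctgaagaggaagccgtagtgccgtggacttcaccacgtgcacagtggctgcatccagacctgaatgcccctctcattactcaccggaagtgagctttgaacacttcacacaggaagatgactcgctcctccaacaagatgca
TEAD1: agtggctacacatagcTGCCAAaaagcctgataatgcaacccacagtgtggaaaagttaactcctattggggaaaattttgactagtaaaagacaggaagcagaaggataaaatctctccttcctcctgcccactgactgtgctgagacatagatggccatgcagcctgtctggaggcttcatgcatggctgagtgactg

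The GATA3 window lies in the region chr10:8130827-8132425, 72.4 kb downstream of the TSS of GATA3, a zinc finger factor of luminal urothelium, and holds an AP-1 word at bases 54 to 60, a TFAP2 word at bases 162 to 170 and a C/EBP word at bases 174 to 181. The FOXA1 window lies in chr14:37579576-37581242, 14.0 kb downstream of the TSS of this forkhead factor, with a TEAD word at bases 55 to 60, a GATA word at bases 151 to 156 and an AP-1 word at bases 191 to 197. The KRT19 window, 11.5 kb upstream of the TSS of a simple-epithelial keratin, holds GRHL, NFI and C/EBP words and no AP-1 word. The windows at FOSL2 and at JUN hold none of the words in question, and 4 windows hold a single word each. These windows are examples and support no count.

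A further 4 windows were picked after the word results were seen, because each holds an AP-1 word and lies near a growth factor or YAP pathway gene: EGFR (chr7:54995271-54996822, 22.2 kb upstream), MET (chr7:116609347-116610593, 61.6 kb upstream), IRS2 (chr13:109861542-109864033, 74959 bp upstream) and AMOTL2 (chr3:134326335-134329096, 42.8 kb downstream). EGFR and MET encode receptor tyrosine kinases, IRS2 an adaptor that couples insulin receptors to PI3K, and AMOTL2 an angiomotin that binds YAP. Capitals have the same meaning as above, with an ETS word (AGGAAGT, here on the other strand) added in the MET window. In the IRS2 window the AP-1 and TEAD words overlap.
EGFR: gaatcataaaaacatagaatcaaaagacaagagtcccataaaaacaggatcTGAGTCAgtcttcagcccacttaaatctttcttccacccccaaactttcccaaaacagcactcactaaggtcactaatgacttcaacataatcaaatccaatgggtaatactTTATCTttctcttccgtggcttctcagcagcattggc
MET: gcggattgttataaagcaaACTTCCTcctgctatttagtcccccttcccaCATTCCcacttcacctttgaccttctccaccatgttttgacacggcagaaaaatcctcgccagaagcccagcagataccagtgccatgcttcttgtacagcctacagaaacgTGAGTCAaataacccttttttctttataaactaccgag
IRS2: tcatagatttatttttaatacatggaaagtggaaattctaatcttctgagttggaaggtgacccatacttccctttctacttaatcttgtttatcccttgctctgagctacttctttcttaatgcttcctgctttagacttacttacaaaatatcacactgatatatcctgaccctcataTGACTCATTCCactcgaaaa
AMOTL2: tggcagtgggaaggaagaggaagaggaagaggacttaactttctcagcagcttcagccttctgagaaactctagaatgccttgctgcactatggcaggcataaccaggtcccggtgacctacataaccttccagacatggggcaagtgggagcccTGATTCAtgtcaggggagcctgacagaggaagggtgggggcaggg

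Width, overlap and position are what the regions were selected on, and they are given as a description. The Abcam regions had a median width of 1564 bp (quartiles 1214 and 2044, range 280 to 3997), and the CST regions they overlap had a median width of 1489 bp. The overlap of both had a median of 1264 bp, or 86.2% of the Abcam region, and 89.7% of the regions overlapped their CST region by at least 50% of each. The midpoints of the Abcam and CST regions lay a median of 152 bp apart, within 100 bp in 35.5%, within 500 bp in 90.2% and more than 1000 bp apart in 2.28%. The Abcam region was the wider in 57.5%, and 177 regions shared their CST region with another of the 5124. The nearest edge was a median of 35236 bp from the TSS, and the nearest H3K4me3 region was a median of 53419 bp away, within 10 kb for 3.32% and over 100 kb away for 23.8%.

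At the edges of the rule, the widest region inside was 3997 bp (42297 bp from CFAP418), and the narrowest one left out for its width was 4002 bp (chr2:62304266-62308267, 88748 bp from B3GNT2). In all, 142 regions met every other condition but were 4000 bp or wider. The nearest inside lay 10018 bp from a TSS, at GSTP1 and at CSTA, and the nearest ones outside lay 9995 bp from IER2 and 9992 bp from PABPC1. At the far end, 99962 bp (TNFRSF11B) and 99939 bp (PWWP3B) were inside, and 100019 bp (SLC38A2) and 100032 bp (VEGFA) were outside. The values on either side of each limit lie close together, so the limits cut through a continuous range.

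Of the words searched, the AP-1 word had the largest difference in percentage points between the regions and the DNA beside them, while the rare CTCF word had a larger ratio (4.43-fold). It was present in the central 400 bp of 42.6% of the regions, against 12.1% of their own flanks, 400 bp windows that start 2 kb beyond the region and touch no region of any list (4989 pairs; 135 regions had no such flank). The difference was 30.4 percentage points, or 3.51-fold, with the word in the region alone in 1864 pairs and in the flank alone in 346 (exact McNemar test, two-sided, Benjamini-Hochberg adjusted over 44 words, p = 3.99e-249). Among all 28609 Abcam regions shared with CST, promoters included, 33.8% held the word. Of the forms of the word, TGACTCA or TGAGTCA was in 33.8% of the regions, against 6.33% of flanks (5.34-fold), and TGAATCA or TGATTCA in 12.8% against 6.27% (2.05-fold). Of the 5124 regions, 32.9% held 1 AP-1 word in the central 400 bp and 9.33% held 2 or more, the most being 14 in a region 12.4 kb from DBNDD1 (chr16:89994642-89996597).

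Of 22 words searched, named for the factor families known to bind them, 15 were more frequent in the regions than in the flanks and 0 were less frequent. The same test on the 22 words spelled backwards, which have the same letters and serve as controls, found 7 more frequent (31.8%) and 1 less frequent, and in all 52.3% of the 44 words differed in either direction. The share among the controls is the level against which the count of named words is to be read. C/EBP factors are bZIP proteins related to AP-1, and NFI and ETS factors are widely expressed in epithelia. After AP-1, the largest differences were those of TEAD (27.6% of the regions, 7.54 points more than in flanks), C/EBP (25.1% against 17.9% of flanks), NFI (22.1% against 17.0%) and ETS (12.9% against 7.98%). None of the reversed forms of these 4 words passed the test. Those of TEAD (11.8% against 10.5%), C/EBP (4.05% against 3.23%) and NFI (3.13% against 2.49%) were nevertheless higher in the regions. The reversed ETS word was in 8.44% against 8.46%. In all shared regions TEAD stood at 24.2%, C/EBP at 20.6%, NFI at 19.8% and ETS at 11.4%.

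**Figure D1:**
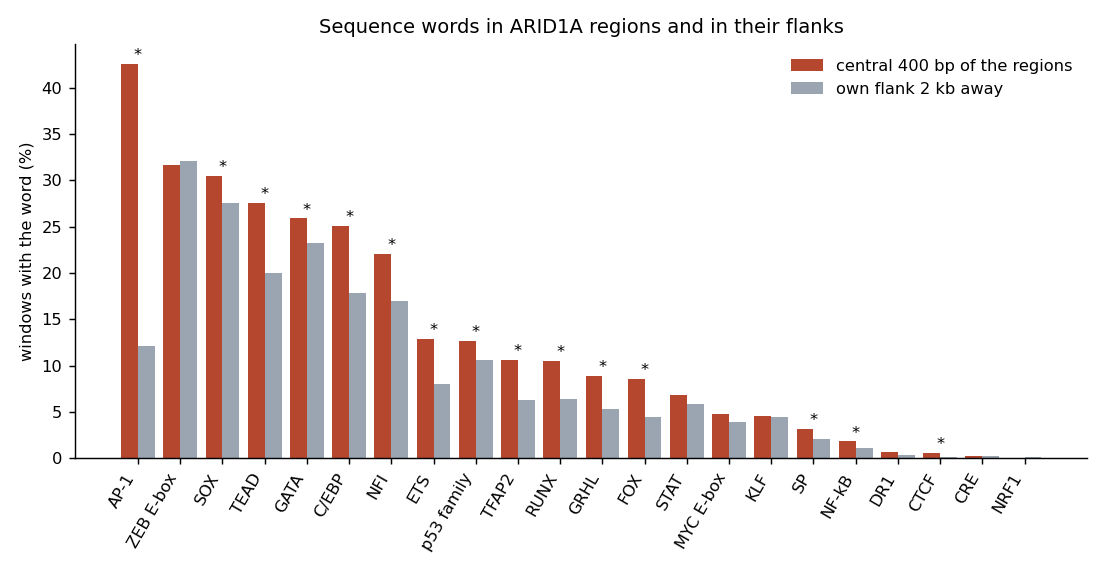
Percentage of windows with each of 22 words on either strand, in the central 400 bp of the regions (red, left bar) and in the flank 2 kb away (grey, right bar), over 4989 pairs. Asterisks mark words that were more frequent in the regions at an adjusted p under 0.05 (exact McNemar test), and AP-1, at 42.6% against 12.1%, has the widest gap.

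Words of some urothelial factor families, and of RUNX, were more frequent by smaller amounts. The KLF word, of the family of KLF5, did not pass the test (4.53% against 4.43%). FOX words (TGTTTAC, bound by forkhead factors such as FOXA1) were in 8.58% of the regions against 4.41% of flanks, TFAP2 words in 10.6% against 6.27%, GRHL words in 8.90% against 5.35%, RUNX words (TGTGGTT, bound by runt domain factors) in 10.5% against 6.45%, and GATA words in 25.9% against 23.3%. The reversed FOX and RUNX words did not pass, and the reversed GATA word was less frequent in the regions (19.0% against 23.8%). The reversed GRHL and TFAP2 words, by contrast, were also more frequent in the regions (14.0% against 11.4%, and 1.32% against 0.581%). Among all shared regions, FOX stood at 8.29%, TFAP2 at 17.0%, GRHL at 8.42%, RUNX at 9.02% and GATA at 21.8%.

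For several words the control moved as well. SOX words (ACAAAG) were in 30.5% of the regions against 27.6% of flanks (27.0% of all shared regions), and their reversed form in 31.6% against 27.7%. SP words, bound by the GC-box factors of many promoters, were in 3.17% against 2.12% (13.8% in all shared regions), and their reversed form in 4.21% against 2.45%. NF-kB words (GGGANTTCC) were in 1.82% against 1.08% (1.89% of all shared regions), with the reversed form at 1.88% against 1.30%. The word of the p53 family was in 12.7% against 10.6% (10.7% of all shared regions), and its reversed form did not pass. The reversed AP-1 word was in 11.9% against 7.60%, and after masking of AP-1 words, with which it can overlap, in 10.4% against 7.28%. The CTCF word was rare, at 0.621% of the regions, against 0.140% of flanks and 0.371% of all shared regions. Words of KLF (CCACACCC, in 4.53% of the regions against 4.43% of flanks), STAT (TTCNNGGAA, 6.79% against 5.87%), the ZEB E-box (CAGGTG, 31.7% against 32.1%), the MYC E-box (CACGTG, 4.77% against 3.95%), CRE (TGACGTCA, 0.281% against 0.220%), DR1 (AGGTCAAAG, 0.641% against 0.401%) and NRF1 (TGCGCATGC, 0.0601% against 0.100%) did not pass the test. All shared regions held these words in 4.51%, 6.28%, 29.6%, 5.55%, 0.720%, 0.619% and 0.566%, in the same order.

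AP-1 words clustered at the midpoints. Within 100 bp of the midpoint of the 5124 regions there were 1.45 AP-1 words per kb, against 0.317 per kb at 1500 to 2000 bp, a ratio of 4.58 (95% interval 4.26 to 4.91). The ratio was 1.70 (1.46 to 1.97) for FOX, 1.65 (1.45 to 1.87) for TFAP2, 1.48 (1.37 to 1.60) for TEAD, and 1.34 (1.18 to 1.52) for the reversed AP-1 word. Over the whole width of the regions, 76.3% held at least 1 AP-1 word.

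**Figure D2:**
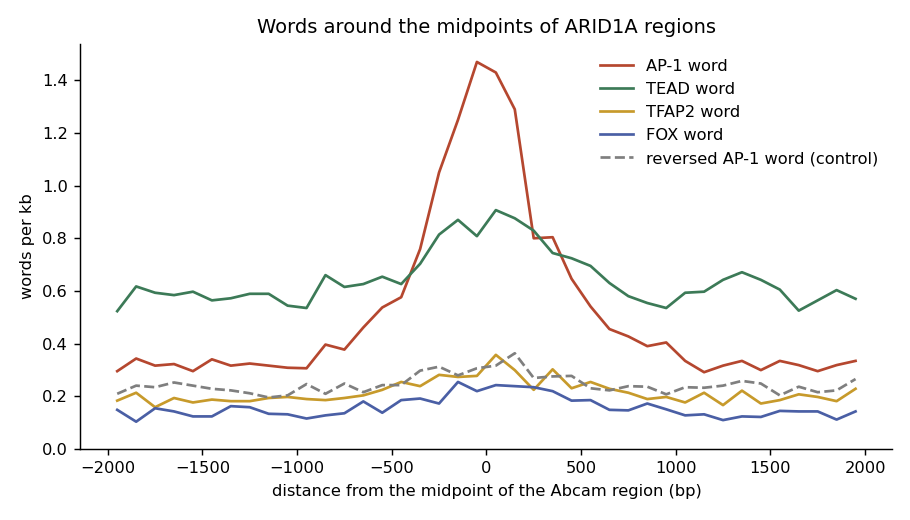
Words per kb in 100 bp steps from 2000 bp left to 2000 bp right of the midpoint of the Abcam region, over 5124 regions, for the AP-1, TEAD, TFAP2 and FOX words and for the reversed AP-1 word as a control (dashed). The AP-1 curve peaks at 1.47 words per kb beside the midpoint and the other curves stay below 1.

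A link between AP-1 and the other words was mostly not detectable. Of the 2165 regions with an AP-1 word, 27.1% also held a TEAD word, against 28.2% of the 2959 without (difference -1.11 points, 95% interval -3.57 to 1.38). Among 21 such comparisons the interval left out 0 in 1, that of the MYC E-box (5.50% against 4.22%, difference 1.27 points, 0.0895 to 2.51), with no adjustment for their number. AP-1 and TEAD words stood together in 11.5% of the regions, against 2.08% of flanks. Of the 5124 regions, 18.5% held none of the AP-1, TEAD, FOX, GRHL, TFAP2, RUNX, ETS and C/EBP words, against 42.6% of flanks.

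Narrow regions carried an AP-1 word near their middle more often than wide ones. The share with an AP-1 word in the central 400 bp was 51.3% in the narrowest of 4 groups of about equal size (under 1214 bp), then 46.3% and 39.3%, and 32.1% in the widest (2045 bp or more). The narrowest group exceeded the widest by 19.2 points (15.5 to 22.9). Over the whole region the order was the other way, from 66.9% with at least 1 AP-1 word in the narrowest group to 86.5% in the widest, while words per kb fell with width, with an interval of 0.949 to 1.06 in the narrowest group and 0.706 to 0.764 in the widest. Regions whose Abcam and CST midpoints lay within 100 bp held an AP-1 word in 48.3%, against 27.5% where they lay over 500 bp apart (difference 20.8 points, 16.1 to 25.2).

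No difference in the AP-1 word by distance, promoter mark or side was detectable. The share differed by -2.46 points (-6.86 to 1.92) between regions 10 to 20 kb and those 70 to 100 kb from the TSS, by -1.63 points (-4.34 to 1.09) between those whose nearest TSS has H3K4me3 and those whose nearest TSS has none, and by 0.0235 points (-2.90 to 2.92) between upstream and downstream ones. SP words were more frequent at 10 to 20 kb than at 70 to 100 kb by 2.25 points (0.718 to 3.71), and less frequent upstream than downstream by 1.37 points (difference -1.37, -2.57 to -0.316), as were TFAP2 words (-2.19 points, -4.12 to -0.356). In all, 36 such comparisons of 6 words were made, and 9 intervals left out 0.

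The base composition differed from the flank by about 1 point. The central 400 bp had a median GC content of 44.5%, against 43.5% in the flanks, and was the higher of the pair in 2818 regions, against 2106 with the flank higher (57.2%, exact two-sided sign test, p = 3.32e-24). The ratio of observed to expected CpG had a median of 0.188 in the regions and 0.192 in the flanks (p = 0.910 by the same exact test). Median GC content was 46.0% in the 1377 shared narrow regions without H3K4me3 that lie intergenic at 1 to 10 kb from a TSS, 42.8% in the 5189 in introns at 10 to 100 kb, 41.5% in the 3487 that lie intergenic at over 100 kb, and 46.2% in all shared regions.

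Set against these 3 classes, chosen by the same rule apart from position, the regions differed most from those over 100 kb from a TSS. Of 22 words, 12 differed from that class, 9 from the intronic class and 2 from the class at 1 to 10 kb, by the 95% Newcombe interval of the difference, with 66 comparisons made and no adjustment for their number. Of the 22 reversed control words, 6, 3 and 2 differed from these classes in the same order. Against the class at 1 to 10 kb the named words thus differed no more often than the controls. That class was the smallest (1377 regions, against 5189 intronic ones and 3487 over 100 kb away), which widens its intervals. Its low count therefore does not show that it was the most alike. AP-1 words were in 42.3% of the regions, against 45.6% of those over 100 kb away (difference -3.37 points, -5.51 to -1.24), 44.3% of the intronic ones (-2.09, -4.00 to -0.179) and 40.2% of those at 1 to 10 kb (2.09, -0.847 to 4.99). The difference from the intronic class was lost in 3 of 11 other ways of choosing or centring the regions, among them 1 TSS per gene (-0.581 points) and windows centred on the overlap of the antibodies (-0.841). With such windows the difference from the class over 100 kb away was lost too (-1.52 points).

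The words of FOX, GRHL and RUNX were less frequent in the regions than in both classes farther from promoters or inside genes: FOX at 8.63%, against 10.6% of intronic regions and 11.4% of those over 100 kb away, and GRHL at 8.86%, against 10.6% and 10.9% in the same 2 classes. The reversed FOX word was also less frequent than in the class over 100 kb away (9.19% against 10.7%). GATA words were less frequent than in the class over 100 kb away (25.9% against 29.3%), as was their reversed form (19.0% against 25.2%). TFAP2, SP, ZEB E-box, MYC E-box and CTCF words were more frequent than in those classes, with the ZEB E-box in 31.9%, against 28.5% of intronic regions and 24.3% of those over 100 kb away. CTCF, the insulator protein, had its word in 32 of the 5124 regions, against 12 of 5189 intronic ones and 4 of 3487 over 100 kb away (differences 0.393 points, 0.143 to 0.667, and 0.510 points, 0.254 to 0.775). Against the class at 1 to 10 kb, ETS words were more frequent (2.19 points, 0.230 to 3.98) and SP words less frequent (-1.86 points, -3.23 to -0.701). The reversed SP and TFAP2 words moved with their named forms between the classes where those differed, as did GC content, and the part of GC content in these differences was not tested.

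The regions thinned out with distance from the TSS and were denser where that TSS carried H3K4me3. Density was taken per Mb of eligible sequence, that is, of the 517 Mb where a region of the median width would have met the rule. It was 9.92 regions per Mb in all (95% Poisson interval 9.65 to 10.2), 11.8 at 10 to 20 kb, 10.9 at 20 to 40 kb, 9.40 at 40 to 70 kb and 7.48 at 70 to 100 kb. The nearest bin exceeded the farthest 1.58-fold (exact conditional interval 1.44 to 1.73). Where the nearest TSS had an H3K4me3 region within 1 kb, the density was 15.0 per Mb (2792 regions in 186 Mb), against 7.06 per Mb where it had none (2332 regions in 330 Mb), a ratio of 2.12 (2.01 to 2.24).

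The ratio for H3K4me3 held in every bin, at 1.99 (1.77 to 2.23), 2.07 (1.88 to 2.28), 2.22 and 2.20 (1.91 to 2.53), going outward. It was above 1 on all 23 chromosomes, with an interval above 1 on 21, the exceptions being chromosomes 19 (1.05, 0.623 to 1.73) and 21 (1.54, 0.937 to 2.54). The fall with distance was present next to TSSs with H3K4me3 (1.48-fold, 1.31 to 1.68) and without it (1.64-fold, 1.44 to 1.88). More regions lay upstream of the nearest gene (68.6%) than downstream, and the density was 10.4 per Mb upstream and 9.02 downstream (ratio 1.15, 1.09 to 1.22). That ratio did not hold within either kind of TSS, at 1.08 (0.991 to 1.18) with H3K4me3 and 0.954 (0.878 to 1.04) without. Inside lncRNA gene bodies, which held 21.5% of the regions, the density was 9.23 per Mb, against 10.1 outside them (0.912, 0.852 to 0.975).

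**Figure D3:**
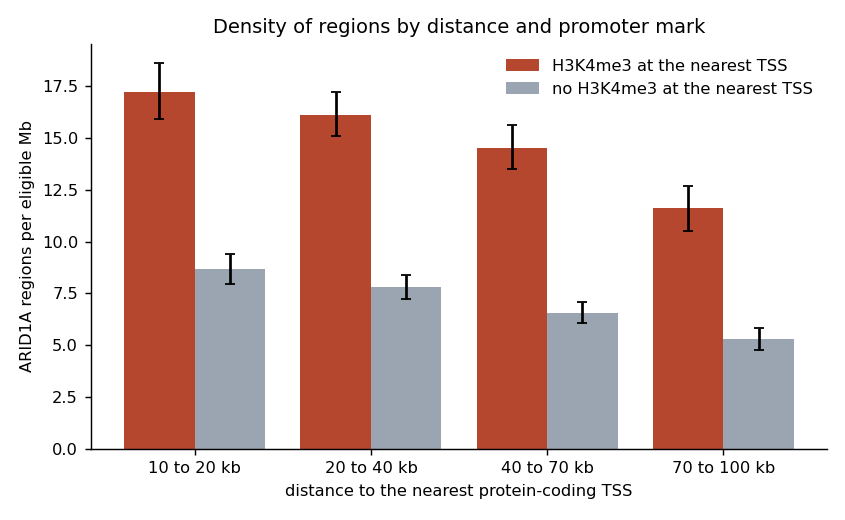
Regions per Mb of eligible sequence by distance to the nearest protein-coding TSS, where that TSS has an H3K4me3 region within 1 kb (red, left bar) and where it has none (grey, right bar), with exact 95% Poisson intervals. Density falls from left to right in both, and the red bars, 17.2 to 11.6 per Mb, stand above the grey ones, 8.67 to 5.28 per Mb, in every bin.

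Density varied several-fold between chromosomes. It was highest on chromosome 20 (17.7 per Mb, 15.5 to 20.2), followed by chromosomes 8 (15.2, 13.7 to 16.8), 22 (13.4, 10.8 to 16.4) and 18 (12.3, 10.5 to 14.4), and lowest on X (3.36, 2.80 to 4.01) and chromosome 4 (6.92, 6.03 to 7.91). The intervals of chromosomes 20 and 8 overlapped. The AP-1 word was in 33.9% of the regions on chromosome 20 and 29.8% of those on chromosome 22, against 42.3% of all. The copy number of each chromosome in RT112 is not in the files, so copy number and density cannot be told apart.

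The regions came in groups. Joined where 12500 bp or less apart, 49.7% (48.3 to 51.1) lay in clusters of 2 or more and 24.8% (23.6 to 26.0) in clusters of 3 or more. There were 982 clusters, 345 of them with 3 or more regions and 56 with 5 or more, and 2578 regions stood alone. The share in clusters of 3 or more was 19.1% in the intronic class (difference 5.73 points, 4.13 to 7.32) and 24.2% in the class over 100 kb away (0.591 points, -1.27 to 2.43). The class at 1 to 10 kb, whose rule leaves it less room beside each TSS, had 5.66%.

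Regions in clusters held an AP-1 word less often. In clusters of 3 or more it was in 36.2%, against 46.0% of the regions that stood alone (difference -9.80 points, -13.0 to -6.51). Clustered regions were wider, with a median of 1686 bp against 1500 bp. Within the 4 groups of width the difference was -7.09 (-14.3 to 0.240), -9.02 (-15.7 to -2.20), -11.5 (-17.6 to -5.10) and -4.43 points (-10.3 to 1.61), from narrow to wide, so 2 of 4 intervals left out 0. Without chromosomes 20 and 22 it was -10.1 points (-13.4 to -6.67). In the 56 clusters of 5 or more, 107 of 325 regions (32.9%, 27.8 to 38.3) held the word.

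The 2 largest clusters had 9 regions each. The first spans chr6:37098815-37157869, and PIM1, a serine/threonine kinase induced by cytokine signals, is the nearest gene to all 9, which lie 12.3 to 70.1 kb upstream of its TSS and cover 20047 bp of 59.1 kb. The 2 regions nearest to PIM1 overlap the same CST region (chr6:37155136-37157869). The second spans chr2:37755685-37803934 upstream of CDC42EP3, an effector of the small GTPase CDC42, at 17.2 to 63.1 kb from a TSS that has no H3K4me3 region, although another TSS of the gene has one. In each, 2 of the 9 regions held an AP-1 word.

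Of the next 5 clusters, with 8 regions each, one lies between MYH9, which encodes nonmuscle myosin heavy chain, and TXN2 on chromosome 22 (chr22:36404887-36466919), one by NFKBIA, the inhibitor of NF-kB that NF-kB itself induces (chr14:35331332-35391857), and one between BCAS1 and CYP24A1, the vitamin D 24-hydroxylase (chr20:54105410-54150712). One lies by HOXB1 and SKAP1 (chr17:48472141-48511476), where 4 of 8 held an AP-1 word, and one upstream of JAG1, a Notch ligand (chr20:10704910-10733426), where 1 of 8 did. A further 6 clusters had 7 regions each, and the longest 3 of these, which complete the 10 described, lie by IER5, an immediate early gene, LYST and HS3ST1. The nearest TSS carried H3K4me3 for none of the regions of the clusters at CDC42EP3, HOXB1 and LYST.

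**Figure D4:**
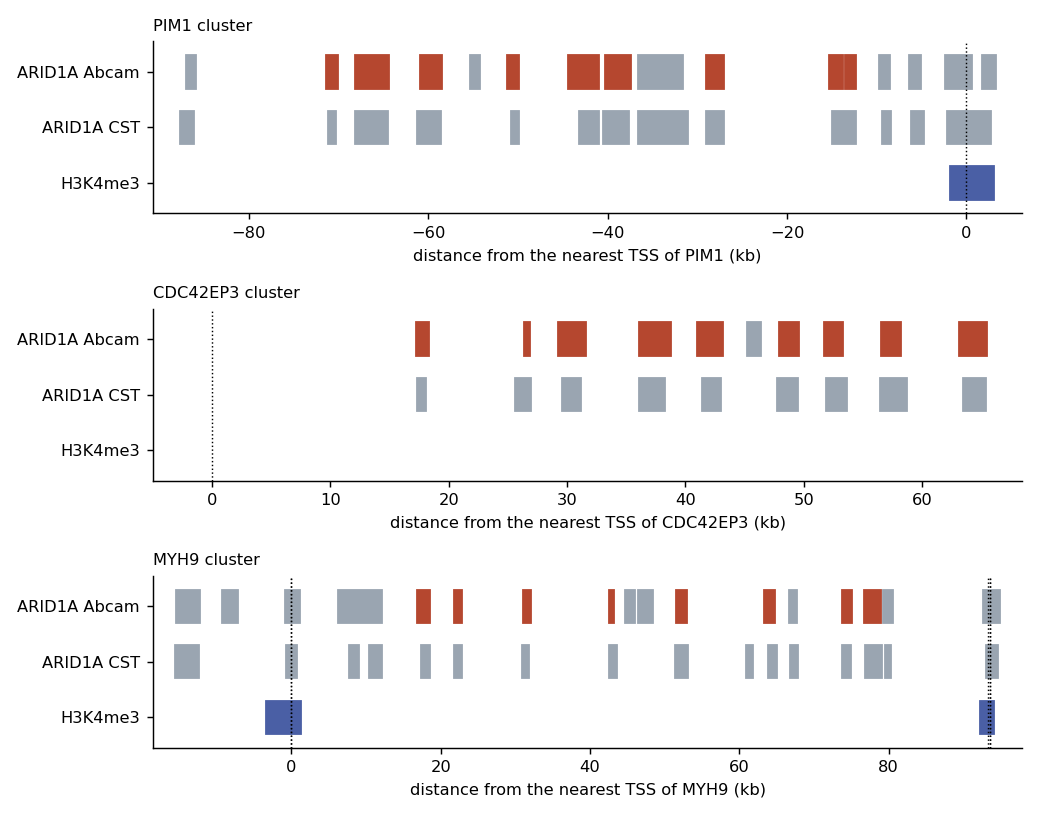
Regions of both ARID1A antibodies and of H3K4me3 in the 3 largest clusters, drawn to scale in kb from the nearest TSS of PIM1, CDC42EP3 and MYH9, with negative values upstream for PIM1. Red boxes are the regions described here (9, 9 and 8), grey boxes other ARID1A regions, blue boxes H3K4me3 regions and dotted lines TSSs, and no H3K4me3 region lies under a red box.

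By nearest TSS, the 5124 regions belonged to 2723 of 19970 protein-coding genes (13.6%), of which 574 had 3 or more and 157 had 5 or more. PMAIP1, which encodes the proapoptotic BH3-only protein NOXA, had the most, with 11 regions 16.4 to 84.8 kb away on chromosome 18, 7 of them upstream. CDC42EP3, JAG1, KLF6, TCIM and YWHAZ had 10 each, and BCAS1, IRS2, PIM1 and PTPN1 had 9 each, as had a further 2 genes that come later in the alphabet and are not described. KLF6 is a zinc finger factor, YWHAZ a 14-3-3 protein and PTPN1 the tyrosine phosphatase PTP1B, which acts on the insulin receptor. The 9 regions of IRS2 lay on both sides of the gene, 6 upstream and 3 downstream. Of these 9, 5 held an AP-1 word, against 1 of the 10 at JAG1 and 42.3% of all regions. Of the 2723 genes, 60.5% had H3K4me3 at a promoter, against 52.1% of all genes, and 51.4% had regions of both ARID1A antibodies there, against 37.6% of all. Of the 157 genes with 5 or more regions, 78.3% had H3K4me3.

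Luminal urothelial genes had the highest density among 11 gene lists. Of 26 such genes, 12 (46.2%) had at least 1 region, with 33 regions in all. The density was 42.1 per eligible Mb (29.0 to 59.2), against 9.92 per Mb over all genes and 14.3 per Mb over genes with H3K4me3. Of all protein-coding genes, 13.6% had at least 1 region, as had 22.8% of those with eligible sequence. GRHL2, a grainyhead factor of epithelia, had 7, all upstream at 16.7 to 66.5 kb and 4 of them with an AP-1 word. ELF3, an epithelial ETS factor, had 6, all downstream at 11.2 to 51.9 kb, and KLF5, a zinc finger factor, had 6. EPCAM, an epithelial adhesion molecule, KRT19, KRT20, SPINK1 and TBX3 had 2 each, and FOXA1, GATA3, KRT8 and PPARG had 1 each. The interval of the list overlaps those of the AP-1 and TEAD, basal, growth factor and PI3K lists. The lists were chosen with earlier results of these data known, and the densities are a description.

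Genes of the AP-1 and TEAD pathways had regions at 10 of 25, at 28.3 per Mb (18.7 to 41.2). AMOTL2 had 6, JUN 5, FOS 4, and FOSL2 and CCN1, a secreted YAP target, 3 each. Of the 5 at JUN, 4 held an AP-1 word in the central 400 bp, against 0 of the 4 at FOS and 0 of the 3 at FOSL2. Over all regions the share was 42.3%, and counts this small support no difference between genes. At JUN, 2 of the regions with the word overlap the same CST region (chr1:58753937-58756094). Basal and squamous genes had regions at 8 of 20, at 25.8 per Mb (15.3 to 40.8), led by EGFR with 6, all upstream at 22.2 to 71.4 kb, and CD44, a hyaluronan receptor, with 3. TP63, the master factor of basal epithelium, had 2, at 57.3 and 66.8 kb upstream.

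Growth factor and ERK feedback genes had regions at 16 of 23 (69.6%), at 23.1 per Mb (17.2 to 30.3). Over all genes the share was 13.6%, or 22.8% of those with eligible sequence. H3K4me3 stood at 19 of the 23, and all genes with H3K4me3 had 14.3 per Mb. All 23 had eligible sequence, against 11941 of all 19970 protein-coding genes. ERRFI1, a feedback inhibitor of EGFR, had 7, all upstream. DUSP4, a phosphatase that turns off MAP kinases, had 6, DUSP1 had 5, and DUSP5, DUSP6 and DUSP10 had 4 each. AREG, an EGFR ligand, had 5. MET had 3, all 3 with an AP-1 word, which 42.3% of all regions held. FGFR3, a receptor often mutated in bladder cancer, had 2, at 23.9 and 26.2 kb upstream, and neither held an AP-1 word.

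PI3K, AKT and mTOR genes had regions at 9 of 26 (34.6%, with eligible sequence at 19 of the 26), at 21.1 per Mb (13.0 to 32.2). Over all genes the share was 13.6%, or 22.8% of those with eligible sequence. H3K4me3 stood at 24 of the 26, and the 14.3 per Mb of all genes with H3K4me3 lies inside the interval. IRS2 had 9 and FOXO3, a forkhead factor that AKT keeps out of the nucleus, had 4, together 13 of the 21. PIK3R1, the regulatory subunit p85-alpha, had 2, and the catalytic subunit genes PIK3CA, PIK3CB and PIK3CG had 1 each. PIK3IP1, an inhibitor of PI3K that the study followed, had 1, of 1094 bp and 20.6 kb upstream (chr22:31313163-31314256), without an AP-1 word. PIK3R3, the regulatory subunit the study followed, had none, as had 17247 of all 19970 protein-coding genes. Only 11941 of the 19970 had eligible sequence. The study reported ARID1A at the promoters of PIK3R3 and PIK3IP1, and promoters are outside the rule used here.

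Genes of the SWI/SNF and PRC2 complexes themselves had regions at 4 of 25 (16.0%, against 13.6% of all genes), at 7.07 per Mb, with the 9.92 per Mb of all genes inside the interval, whose upper end was 15.4. EED, a core PRC2 subunit, had 3, and ARID1B, the paralogue of ARID1A, had 1 at 54.1 kb. Among lists of other cell types, hepatocyte genes had 2.41 per Mb (1 of 20 genes, APOB), neuronal genes 3.37 (2 of 20), immune cell genes 8.33 (1 of 20, CD3E), muscle genes 9.18 (2 of 20) and fibroblast genes 10.3 (6 of 20, among them COL1A1, COL1A2 and VIM). Their intervals were wide, such as 1.01 to 30.1 for the immune cell genes. All but that of the neuronal genes (0.695 to 9.85) took in the 9.92 per Mb of all genes. H3K4me3 stood at only 3 of the 20 neuronal genes, and the 6.34 per Mb of genes without H3K4me3 lies inside their interval. 

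**Figure D5:**
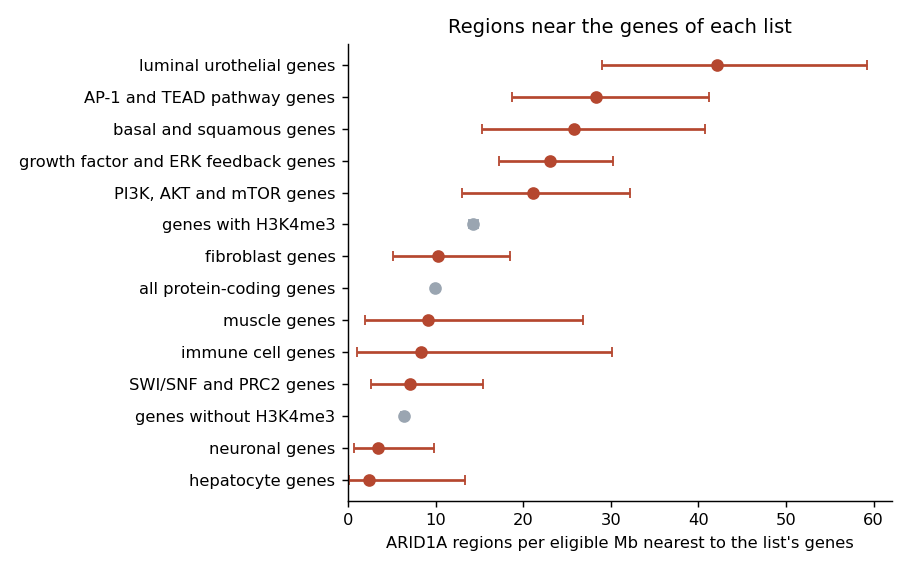
Regions per eligible Mb of sequence whose nearest protein-coding TSS belongs to the genes of each list (red), with exact 95% Poisson intervals, beside the same over all protein-coding genes and over genes with and without H3K4me3 (grey). The luminal urothelial list is at the top with 42.1 per Mb and the hepatocyte list at the bottom with 2.41 per Mb.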

How the data were processed

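Regions came from CUT&RUN of RT112 cells (4 groups, 3 replicates each). The authors trimmed reads with cutadapt, aligned them with bwa-mem2 (human genome GRCh38, spike-in genome E. coli), discarded duplicates by Picard and multiply mapped reads by samtools, scaled by spike-in, called regions with SEACR and merged replicates with bedtools. Unique mapping can leave repeats without regions, and merging keeps a region found in a single replicate. SEACR is described as relaxed in the methods and as stringent in the lists' own names, which leaves its mode uncertain, and only a small top fraction of its peaks was retained. The submitters' processing notes also name bcl2fastq, deepTools and hg38. Which library belonged to which of the pair of preparation batches is not stated. The deposited lists hold 3 columns of position, without signal or score.

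Positions are printed from 1. Regions off chromosomes 1 to 22 and X were left out (152 Abcam, 159 CST, 14 H3K4me3). TSSs were the 78281 starts of protein-coding transcripts in GENCODE 44, and the hg38 genome gave the sequences. Regions overlapped when they shared 1 bp. Word presence on either strand was tested by the exact McNemar test with Benjamini-Hochberg adjustment at 0.05. Shares of classes were compared by Newcombe intervals, and densities by exact Poisson and conditional binomial intervals on a grid of 50 bp, with Python 3.11.15, numpy 2.4.6, pandas 2.3.3, scipy 1.17.1 and pysam 0.24.0. Scripts were tested on simulated data. Repeats were not analysed here, because the genome used carries no repeat mask. The regions, words and gene lists were chosen with earlier results of these data known. Named were the 10 largest clusters, the 10 genes with most regions (ties by length and by symbol), list genes with regions (up to 6 a list by number, others chosen after their values were seen), regions at the limits of the rule and 10 windows of sequence, of which 1 is not reported here. The alternatives were other overlap, distance, H3K4me3, lncRNA, TSS and width rules, 1 region per cluster, other windows, flanks and joining distances, and, added after seeing the data, masking of AP-1 words.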

Additional observations from a re-analysis of the deposited data

How the results depend on the processing

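Under 16 other settings, no result reversed its direction. Regions minus flank, AP-1 kept a difference of 18.6 to 35.0 points, and 11 to 16 of the 22 named words were more frequent in the regions. The H3K4me3 density ratio stayed at 1.90 to 2.28, the ratio of the nearest to the farthest bin at 1.53 to 1.64, the pooled upstream ratio at 1.11 to 1.17 and the density of chromosome 20 over X at 4.67 to 6.24. Of the values for single words, 174 stayed on the same side of the test and 8 no longer passed it, those of SP, NF-kB, CTCF, SOX and the p53 family. Only regions at least as wide as the Abcam median (1486 bp) left 2824 regions at 1761 genes, with a median offset of 176 bp between antibodies, 38.3% and 15.3% in clusters of 2 or more and 3 or more, 5 words that differed from the class at 1 to 10 kb, 3 that differed from the intronic class, and AP-1 differences of 4.16 points from the first (now past the threshold) and -2.11 from the second (no longer past it). A mutual overlap of 50% gave an offset of 138 bp and 45.8% and 20.7% in clusters. The clusters' shares were 51.8% and 26.1% with no lncRNA exclusion, 51.5% and 26.5% with no width limit, 33.2% and 11.4% joined at 5 kb, and 62.9% and 37.6% joined at 25 kb. Words that differed from the class at 1 to 10 kb numbered 4 with distance from the midpoint, 4 at over 5 kb from a lncRNA TSS and 4 in the central 200 bp. With 1 TSS per gene, 5 words differed from the intronic class and the AP-1 difference from it was -0.581, no longer past the threshold. With windows centred on the overlap of the antibodies, the AP-1 difference was -0.841 points from the intronic class and -1.52 from the class over 100 kb away, neither past the threshold any longer. With 1 region per cluster, 4 reversed words were more frequent. Apart from what each setting does to the number of regions, the cause was not tested. No paired analysis was possible because each list is merged over the replicates, and for the same reason no replicate could be left out. Depth is unknown, and a region missing from a list may lie just under its threshold.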
